A study of Gallus gallus with 12 samples.

Results

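The genes described here are 39 members of the WNT signalling pathway measured in the breast muscle of broiler chickens. They are every gene on the array whose single platform symbol begins with WNT, FZD, SFRP, DKK, RSPO, TCF7, LEF1 or DVL, or is APC, AXIN1, AXIN2, CTNNB1, LRP5, LRP6, WIF1 or GSK3B, out of 11528 named genes in all. Of these names GSK3B had no row with a single symbol and is not analysed here. Each member had 1 transcript cluster, the unit of the array that sums the probes of a gene, so no choice between rows was needed. By role there were 11 ligands, 10 receptors, 7 secreted antagonists, 3 R-spondins, 2 relay proteins, 3 proteins of the destruction complex and 3 nuclear effectors.

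Samples were taken from the Pectoralis major, the main breast muscle, of 12 broilers of the commercial hybrid Ross 708, all labelled male. The birds belonged to a single flock kept to an average live weight of 3.7 kg, and the labels give no age. Inspection after slaughter had put 6 birds in the group with normal muscle and 6 in the group with white striping / wooden breast myopathy, called affected here, in which the fillet shows pale fatty lines and hardens. There was 1 whole-transcript array for each bird, which gives n = 6 per group unless stated, and values are log2 signals as deposited.

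WNT ligands are secreted glycoproteins that bind Frizzled receptors together with LRP5 or LRP6. In the absence of ligand a destruction complex built on APC and the axins marks beta-catenin for degradation, and a bound receptor halts this through Dishevelled, so that beta-catenin reaches the nucleus and acts with TCF and LEF factors. In skeletal muscle the pathway is known for its part in embryonic myogenesis, in the satellite cells that repair fibres and in the fibroblasts that lay down matrix.

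Before the results, 3 arrays of the normal group stood apart. HINTW, a gene of the W chromosome that only female birds carry, lay between 8.51 and 9.41 on normal birds 1, 4 and 5 and between 2.46 and 2.99 on the other 9 arrays, although all birds are labelled male. The main results are therefore also given without these 3 arrays. Fast fibre genes set the tissue, and 7 of 10 listed markers were measured. Their mean log2 signal lay between 10.48 and 11.08 in every bird. Of these markers PVALB was far lower, at 3.41 to 7.09 over all birds, while every other one lay between 10.99 and 12.69. Array medians ran from 4.05 to 4.16.

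Of the 39 members 1 passed the test over all 20804 clusters, APC, which rose in affected muscle. None fell. The background share of calls was 1.14%, with 0.63% higher and 0.514% lower, so a count of 1 among 39 lies near it. Leaving out 1 bird at a time moved the members called to between 0 and 3 and the clusters called, 238 with all birds, to between 1 and 588. At an unadjusted p under 0.05 there were 6 members higher and 10 lower, together 41.0% of the 39, against 22.1% of all clusters (10.6% higher and 11.5% lower). All 10 lower members and 1 of the 6 higher averaged under a log2 signal of 5, a split taken up below. Without the 3 arrays with W transcripts 7 members were higher and 7 lower at an unadjusted p under 0.05, 35.9% against 17.7% of all clusters. No member passed the adjusted threshold there or with HINTW as a covariate, settings in which 0.0144% and 0.0433% of all clusters passed. The median difference of the 39 was -0.02 on the log2 scale, beside -0.03 over all clusters. Signs were split 17 positive to 22 negative, and 23 to 16 after quantile normalization of the arrays. Before that normalization 56.4% of the members were negative, beside 56.1% of all clusters and 49.4% of named genes. The birds of the groups did not overlap for APC, higher in affected muscle, and for WNT7A, lower, against 1.06% and 1.11% of all clusters.

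**Figure D1:**
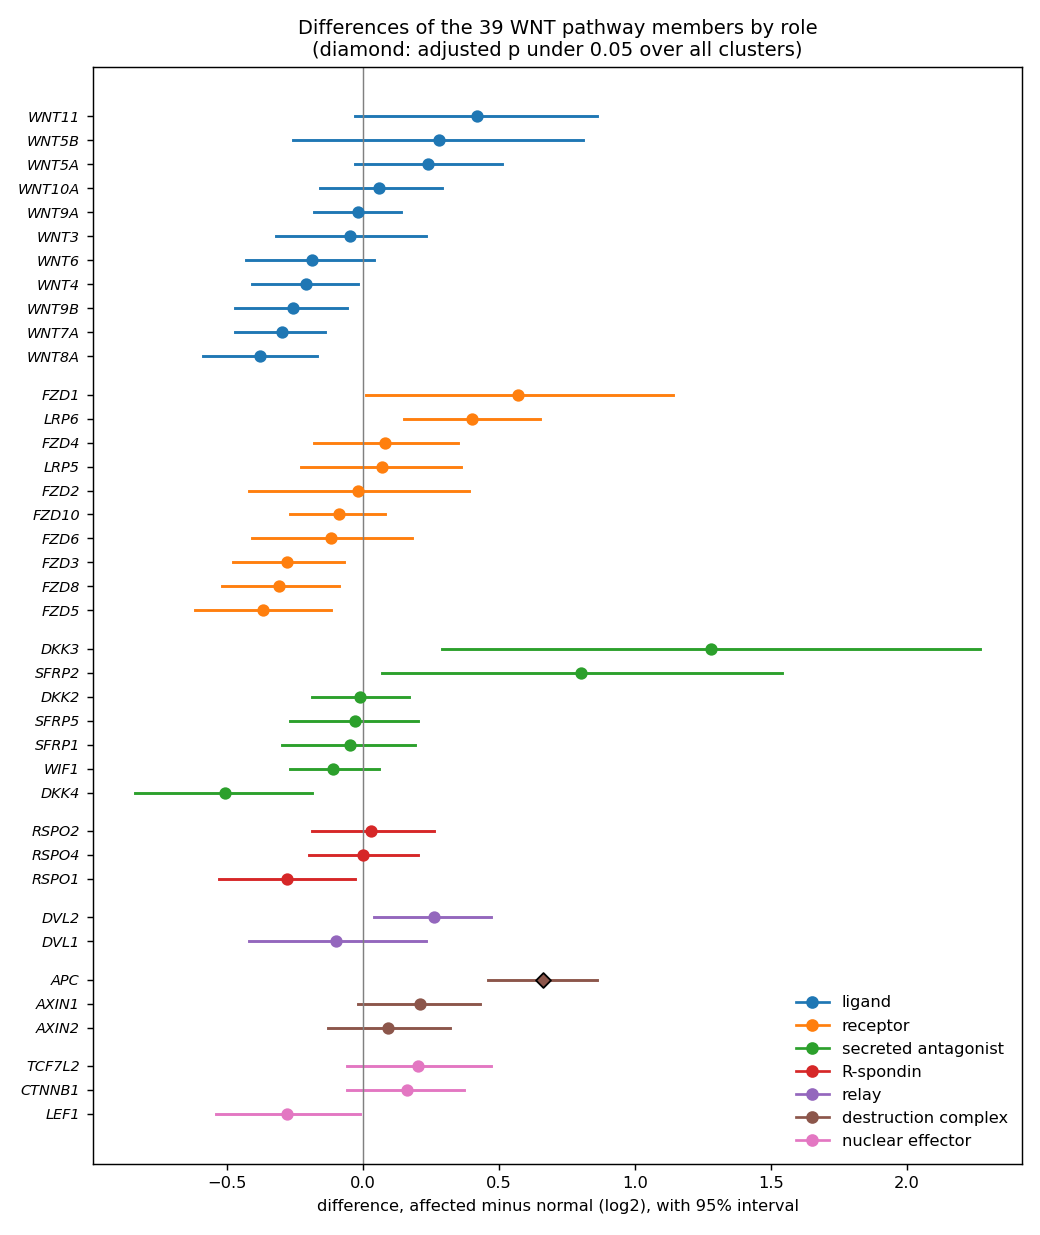
Differences of the 39 members between 6 affected and 6 normal birds (log2, affected minus normal, horizontal axis), grouped by role, with 95% intervals from limma's fit as lines. The diamond marks APC at 0.66, which passed an adjusted p of 0.05, and DKK3 at 1.28 has the widest interval, from 0.29 to 2.27.

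APC is the scaffold that holds beta-catenin in the destruction complex, and in birds its gene lies on the Z chromosome. Its log2 signal in normal muscle was 5.53 at the lowest, 5.77 at the median and 5.93 at the highest. In affected muscle the corresponding values were 6.26, 6.39 and 6.64. All 6 affected birds thus lay above every normal bird. The difference was 0.66 ± 0.09 (log2 ± SE; 95% interval 0.46 to 0.86), a 1.58-fold rise, with an adjusted p of 0.0153 in limma's fit. In whole muscle, more cells that hold a transcript and more transcript per cell cannot be told apart, which holds for every gene described here.

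The APC difference was as large without the 3 arrays with W transcripts. Those arrays stood at 5.65 to 5.78, inside the 5.53 to 5.93 of the other 3 normal birds, and without them the difference was 0.65 ± 0.12. With 3 normal birds against 6, the adjusted p was 0.0862 (unadjusted 0.000349) and 3 clusters in the whole table passed. With HINTW as a covariate the difference was 0.64 and the adjusted p 0.0715. Leaving out affected bird 6 gave 0.62 with an adjusted p of 0.051 in limma's fit. Leaving out normal bird 2 and affected bird 4 together gave 0.59 with an adjusted p of 0.0616. For APC that pair held the lowest normal value, 5.53, and the second highest affected value, 6.54. Leaving it out therefore narrows the difference by construction.

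Z-linked genes as a whole moved with these arrays. Over 516 named Z-linked genes the median difference between affected and normal muscle was 0.17 with all arrays and 0.03 without the 3 arrays. With all arrays 19 of the 516, or 3.68%, were called higher and none lower in limma's fit, beside 0.63% and 0.514% of all clusters. At an unadjusted p under 0.05 there were 181 higher and 21 lower, beside 10.6% and 11.5% of all clusters. Within the normal group the 3 arrays minus the other 3 birds gave a median of -0.13 for Z-linked genes and -0.04 for APC. The APC difference without these arrays was larger than that of 91.1% of the Z-linked genes.

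The genes next to APC varied among themselves. Of the 5 protein-coding genes on either side of it in the order of assembly GRCg7b, 8 were measured in all, and none passed the test. WDR36, a ribosome biogenesis factor, lay at 4.75 to 5.04 on the arrays with W transcripts and at 5.94 to 6.06 in the other normal birds. Its difference was 0.70 with all arrays and 0.17 without them. YTHDC2, an RNA helicase that reads methylated adenosine, went from 0.64 to 0.24. CAMK4, a calcium-dependent kinase, was at 0.49 ± 0.18 with all arrays (adjusted p = 0.144) and 0.47 without the 3. Leaving out 1 bird at a time moved the CAMK4 difference to between 0.32 and 0.57. EPB41L4A, the neighbour on one side, had a difference of -0.64 ± 0.40 (adjusted p = 0.356). Without the 3 arrays it was -0.94 (adjusted p = 0.207 in limma's fit). MCC, a negative regulator of beta-catenin signalling in mammals, had 0.25 ± 0.12 (adjusted p = 0.257), and 0.24 without the 3 arrays.

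**Figure D2:**
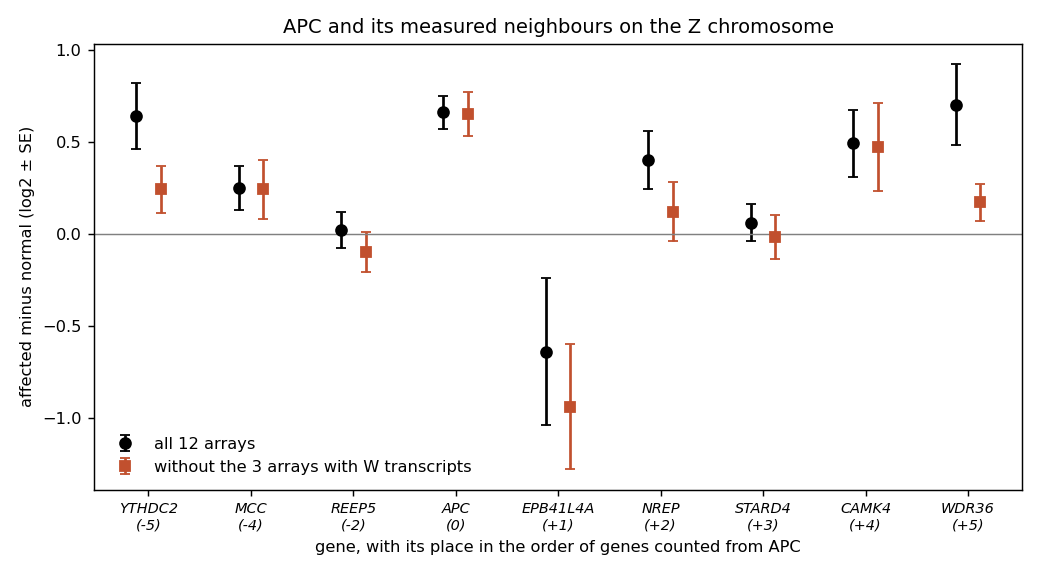
Difference between affected and normal muscle (log2 ± SE, vertical axis) for APC and its 8 measured neighbours on the Z chromosome, in gene order. Circles use all 12 arrays and squares leave out the 3 arrays with W transcripts. APC is at 0.66 and 0.65 and CAMK4 at 0.49 and 0.47, while WDR36 goes from 0.70 to 0.17.

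The other proteins of the destruction complex did not pass. AXIN1, the scaffold that limits assembly of the complex, ranged from 5.16 through a median of 5.57 to 5.84 in normal muscle and from 5.66 through 5.78 to 5.85 in affected muscle. Its difference was 0.21 ± 0.10 (adjusted p = 0.257), and 0.04 without the 3 arrays. AXIN2, whose transcription beta-catenin raises in many tissues, so that it is often read as a gauge of pathway activity, had a difference of 0.09 with a 95% interval from -0.13 to 0.32. Its groups overlapped, at 3.87 to 4.13 in normal and 3.80 to 4.46 in affected birds, with 1 affected bird above and 1 below every normal bird.

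Among the 10 receptors none passed, with 4 positive and 6 negative differences. LRP6, the co-receptor that passes the signal to the axins, had a log2 signal of 5.10, 5.43 and 5.75 (lowest, median, highest) in normal muscle. In affected muscle these were 5.67, 5.78 and 5.98. Of the affected birds 3 lay above every normal bird, and normal bird 6 alone reached into the affected range. The difference was 0.40 ± 0.12 (adjusted p = 0.0846). Without 1 bird at a time the adjusted p ran from 0.0473, without normal bird 6, to 0.152, and without the 3 arrays with W transcripts the difference was 0.34 (adjusted p = 0.241). LRP5, the related co-receptor, had 0.07 with an interval from -0.23 to 0.36.

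The Frizzleds, which bind the ligand itself, went in both directions. FZD5 had a signal of 3.74, 4.16 and 4.46 in normal and of 3.60, 3.82 and 3.89 in affected muscle. Normal bird 5 held the 3.74, the other 5 normal birds lying above every affected bird. Its difference was -0.37 ± 0.12 (adjusted p = 0.101). The adjusted p ran from 0.0473, without normal bird 5, to 0.191 when 1 bird was left out, and the difference was -0.39 (adjusted p = 0.145) without the 3 arrays. FZD8 stood at 3.29, 3.47 and 3.88 against 3.03, 3.22 and 3.39, a difference of -0.31 ± 0.10 (adjusted p = 0.106), and -0.40 without the 3 arrays. With all arrays 5 affected birds lay below every normal bird for FZD8. FZD3, known for its part in axon guidance in mammals, stood at 3.32, 3.57 and 3.64 against 3.0, 3.33 and 3.46, and differed by -0.28 ± 0.10 (adjusted p = 0.122), or -0.29 without the 3 arrays.

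FZD2 did not pass, and its interval leaves room for a modest change in either direction. Its signal was 6.46, 6.80 and 7.21 in normal and 6.07, 6.81 and 7.30 in affected muscle. The difference was -0.02 ± 0.19 (95% interval -0.42 to 0.39), and -0.22 ± 0.23 without the 3 arrays. FZD1 ranged from 4.49 through 5.66 to 5.94 in normal and from 5.52 through 5.90 to 6.65 in affected muscle, with a difference of 0.57 ± 0.26 (adjusted p = 0.218). It was 0.99 without the 3 arrays. Leaving out normal bird 2 gave 0.38, and leaving out affected bird 4 as well gave 0.31. For FZD1 these birds were the lowest normal and the second highest affected, so each step narrows the difference by construction. FZD4, a receptor of blood vessel growth, FZD6 and FZD10 had differences of 0.08, -0.12 and -0.09, each with an interval that includes 0.

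None of the 11 ligands passed, with 4 positive and 7 negative differences. WNT8A, an early embryonic ligand of the beta-catenin branch, was at 3.12, 3.47 and 3.75 in normal and at 2.95, 3.11 and 3.20 in affected muscle. It differed by -0.38 ± 0.10 (adjusted p = 0.0641), and normal bird 5 was the only normal bird inside the affected range. When 1 bird was left out the adjusted p ran from 0.036, without normal bird 5, to 0.13, and without the 3 arrays the difference was -0.37 (adjusted p = 0.117). WNT7A, which in mouse muscle expands satellite cells, was at 2.83, 2.99 and 3.11 against 2.49, 2.72 and 2.82. Every affected bird lay below every normal bird, the closest being at 2.83 and 2.82. The difference was -0.30 ± 0.08 (adjusted p = 0.0617), with an adjusted p from 0.0473, without normal bird 6, to 0.113 when 1 bird was left out. Without the 3 arrays it was -0.27 (adjusted p = 0.206). The mean of WNT7A was less than 2.99, the highest HINTW signal on the 9 arrays that lack W transcripts. By this measure, which rests on 1 gene, the signal of WNT7A could not be told apart from background. Detection itself was not tested. HINTW itself was 2.83 to 2.99 in the normal and 2.46 to 2.71 in the affected birds among those arrays, a difference of -0.33. ATP5F1AW, a second W-linked gene, was at 3.67 ± 0.34 (SD, n = 9) on those arrays, and WNT8A, FZD8 and FZD3 averaged less than that, so their signal may also be near background.

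WNT9B, a ligand of kidney tubule formation in mammals, was at 4.18, 4.43 and 4.79 in normal and at 4.13, 4.16 and 4.22 in affected muscle. The affected birds were close together and 5 of them lay below every normal bird, with a difference of -0.26 ± 0.10 (adjusted p = 0.136). WNT4, which works in kidney and gonad formation, was at 4.85, 5.04 and 5.24 against 4.60, 4.80 and 4.98. It differed by -0.21 ± 0.09 (adjusted p = 0.182), with 4 affected birds below every normal bird. WNT6, at -0.19, and WNT3, WNT9A and WNT10A, between -0.05 and 0.06, had intervals that include 0.

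WNT5B, WNT5A and WNT11, which can signal without beta-catenin, did not pass. WNT5B stood at 4.41, 5.50 and 5.73 in normal and at 5.18, 5.51 and 6.34 in affected muscle. Its medians were nearly equal, normal bird 1 alone was low, and the difference was 0.28 ± 0.25 (adjusted p = 0.531), or 0.05 without the 3 arrays with W transcripts. WNT5A, a ligand of cell polarity and limb outgrowth, was at 4.02, 4.28 and 4.75 against 4.45, 4.53 and 4.84, and differed by 0.24 ± 0.12 (adjusted p = 0.267). WNT11 was at 3.20, 3.76 and 4.26 against 3.49, 4.24 and 4.55, with a difference of 0.42 ± 0.21 (adjusted p = 0.255), or 0.61 without the 3 arrays, and 3 affected birds lay above every normal bird.

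**Figure D3:**
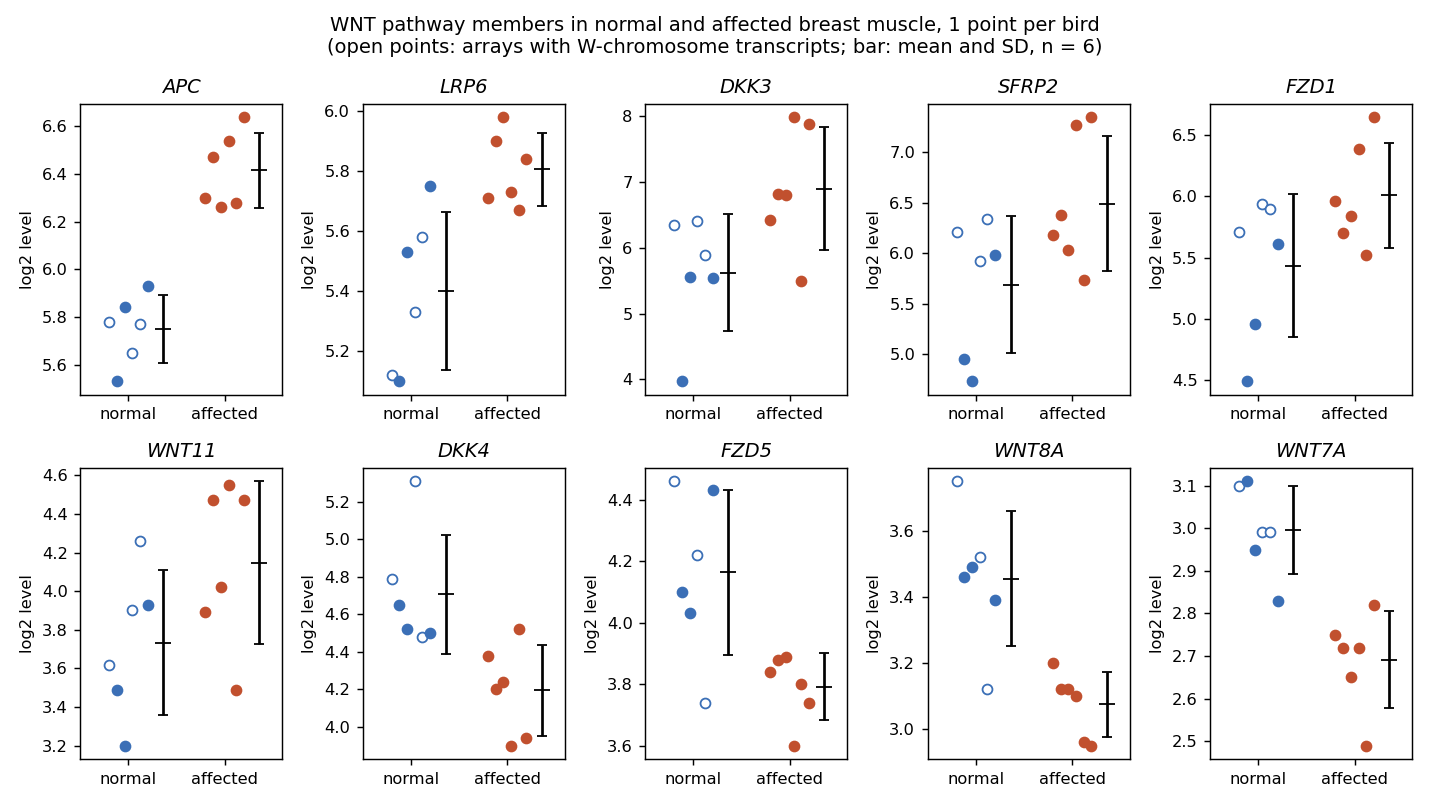
Log2 signal (vertical axes, scaled for each gene) of 10 members in 6 normal and 6 affected birds, with the mean and SD as a bar. Open points are normal birds 1, 4 and 5, the arrays with W transcripts. Only APC and WNT7A have groups that do not overlap among the 10 genes drawn.

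The 7 secreted antagonists, which trap ligands or block LRP co-receptors outside the cell, held the largest positive and, with all arrays, the largest negative difference among the 39 members. DKK3, a member of the Dickkopf family whose action on WNT signalling is unsettled, stood at 3.97, 5.73 and 6.41 in normal muscle. In affected muscle it stood at 5.49, 6.81 and 7.99. Affected birds 4 and 6 were the highest and normal bird 2 the lowest, while affected bird 5 lay within the normal range and the other 5 above it. The difference was 1.28 ± 0.46, a ratio of 2.43 (adjusted p = 0.135). When the 3 arrays with W transcripts were left out it was 1.88 ± 0.54 (unadjusted p = 0.0059, adjusted p = 0.148). The normal birds then left were 2, 3 and 6, with DKK3 at 3.97, 5.56 and 5.54. The DKK3 difference was 0.73 ± 0.36 without normal bird 2 and affected bird 4. These held the lowest normal and the highest affected DKK3 value, so leaving them out narrows the difference by construction.

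SFRP2, a decoy that binds WNT ligands and is made by fibroblasts, did not pass. It was at 4.73, 5.95 and 6.34 in normal and at 5.73, 6.28 and 7.35 in affected muscle. Affected birds 6 and 4 were the highest, and 3 affected birds lay above every normal bird. The difference was 0.80 ± 0.34 (adjusted p = 0.187), 1.27 ± 0.39 without the 3 arrays and 0.50 ± 0.34 without normal bird 2 and affected bird 4. Normal bird 2 had the second lowest SFRP2 of its group, so leaving out that pair narrows the difference by construction.

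DKK4, which blocks LRP5 and LRP6, was at 4.48, 4.59 and 5.31 in normal and at 3.90, 4.22 and 4.52 in affected muscle. Of the affected birds 5 lay below every normal bird and bird 5 reached the normal range. The difference was -0.51 ± 0.15 (adjusted p = 0.0881), and normal bird 4, an array with W transcripts, held the 5.31. Without the 3 arrays it was -0.36, smaller than that of FZD8. The other antagonists DKK2, SFRP1, SFRP5 and WIF1 had differences between -0.11 and -0.01, with intervals that include 0.

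R-spondins are secreted proteins that keep WNT receptors at the cell surface. RSPO1 stood at 3.76, 4.17 and 4.34 in normal and at 3.47, 3.82 and 4.02 in affected muscle, a difference of -0.28 ± 0.12 (adjusted p = 0.173). RSPO2, with 0.03, and RSPO4, with an interval from -0.20 to 0.20, differed by less than their errors.

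Of the Dishevelled proteins, which relay the signal inside the cell, DVL2 was at 4.64, 4.79 and 4.95 in normal and at 4.88, 4.99 and 5.43 in affected muscle. It differed by 0.26 ± 0.10 (adjusted p = 0.153), with 3 affected birds above every normal bird. DVL1 was at 5.76, 6.33 and 6.54 against 5.78, 6.17 and 6.38, with a difference of -0.10 ± 0.15 (adjusted p = 0.737). The affected range of DVL1 lay within the normal range of all 6 birds, but without the 3 arrays with W transcripts the normal birds were at 6.35 to 6.54 and the difference was -0.33 (unadjusted p = 0.0504, adjusted p = 0.283).

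CTNNB1, the gene of beta-catenin, was at 6.68, 6.76 and 7.07 in normal and at 6.76, 6.95 and 7.29 in affected muscle. The groups overlapped and the difference was 0.16 ± 0.10 (95% interval -0.06 to 0.37), and 0.25 without the 3 arrays (adjusted p = 0.282). TCF7L2, a nuclear partner of beta-catenin that fibroblasts of muscle connective tissue carry in chick and mouse limbs, was at 5.76, 6.15 and 6.59 against 6.16, 6.33 and 6.53. Its difference was 0.20 with an interval from -0.06 to 0.47. LEF1 had -0.28 ± 0.12 (adjusted p = 0.208) at a signal of 2.30 to 3.19 over all birds, and -0.09 without the 3 arrays. Besides WNT7A and LEF1, the members that averaged under the 2.99 of HINTW on arrays without W transcripts were FZD10, RSPO4 and WIF1. In all 13 members averaged under the 3.67 of ATP5F1AW, the other 8 being FZD3, FZD8, RSPO2, SFRP1, SFRP5, WNT3, WNT8A and WNT9A.

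Members with a weak signal tended to be lower in affected muscle and those with a strong signal higher, which was also the direction over all named genes. The split, at a mean log2 signal of 5, was chosen after the values were seen. Below it 20 of 26 members, or 76.9%, had a negative difference, beside 58.0% of 6841 named genes and 62.9% of all clusters of such signal. At or above it 11 of 13 members, or 84.6%, had a positive difference, beside 63.3% of 4687 named genes. The median differences of the members were -0.10 below and 0.21 above the split, and those of the named genes -0.03 and 0.08. At an unadjusted p under 0.05 in limma's fit, 1 of the 26 was higher and 10 lower, beside 627 and 729 of the 6841 named genes. Of the 13 there were 5 higher and 0 lower, beside 1006 and 317 of the 4687 named genes. Without the 3 arrays with W transcripts 16 of the 26, or 61.5%, were negative, near the 55.5% of named genes and 59.2% of all clusters of such signal. There 10 of the 13, or 76.9%, were positive, beside 54.4% of named genes. Signal depends on the probes of each gene as well as on its transcript level, so it does not rank genes by expression.

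**Figure D4:**
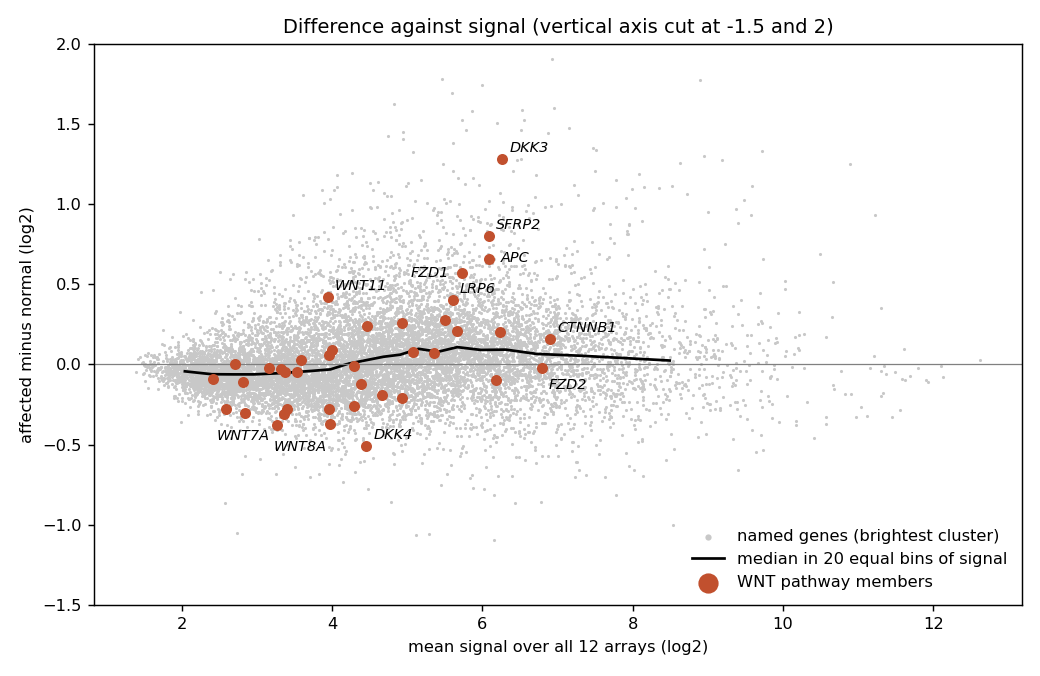
Difference between affected and normal muscle (log2, vertical axis) against mean log2 signal over all 12 arrays (horizontal axis) for named genes in grey, with their median in 20 bins as a line, and the 39 members in red. Members below a signal of 5 lie mostly under 0 (20 of 26) and those above it mostly over 0 (11 of 13).

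DKK3, SFRP2, FZD1 and WNT11, grouped after their values were seen, were set beside fibroblast markers bird by bird. Of 11 listed fibroblast and mesenchymal markers 8 were measured, and all 8 had a positive difference, with a median of 1.15, although none passed. Their mean log2 signal was 6.17 to 8.52 in normal and 8.30 to 9.93 in affected muscle, and none of the 8 averaged under 2.99. Affected bird 4 had the highest marker mean, 9.93, followed by affected bird 6 at 9.57, and these 2 birds held the highest DKK3, SFRP2 and FZD1 of the affected group. Affected bird 5, with the lowest marker mean of that group at 8.30, had its lowest value for all 4 members. In the normal group bird 2 had the lowest mean, 6.17, and bird 3 the next, 7.73, and these 2 birds were also the 2 lowest for SFRP2, FZD1 and WNT11. Both are among the 3 normal birds left without the arrays with W transcripts. There the differences of the 4 members were larger, from 0.61 for WNT11 to 1.88 for DKK3. The order differed elsewhere: normal bird 6 had the highest marker mean of its group, 8.52, and the second lowest DKK3, 5.54, while normal bird 4 had the highest DKK3, 6.41. Macrophage and leukocyte markers, 5 of 6 measured and all 5 with a positive difference, had a mean of 4.94 to 6.62 in normal and 6.15 to 7.50 in affected muscle. Their lowest bird was again normal bird 2 and their highest affected bird 4. The part of these cell types in the differences of the 4 members was not tested.

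**Figure D5:**
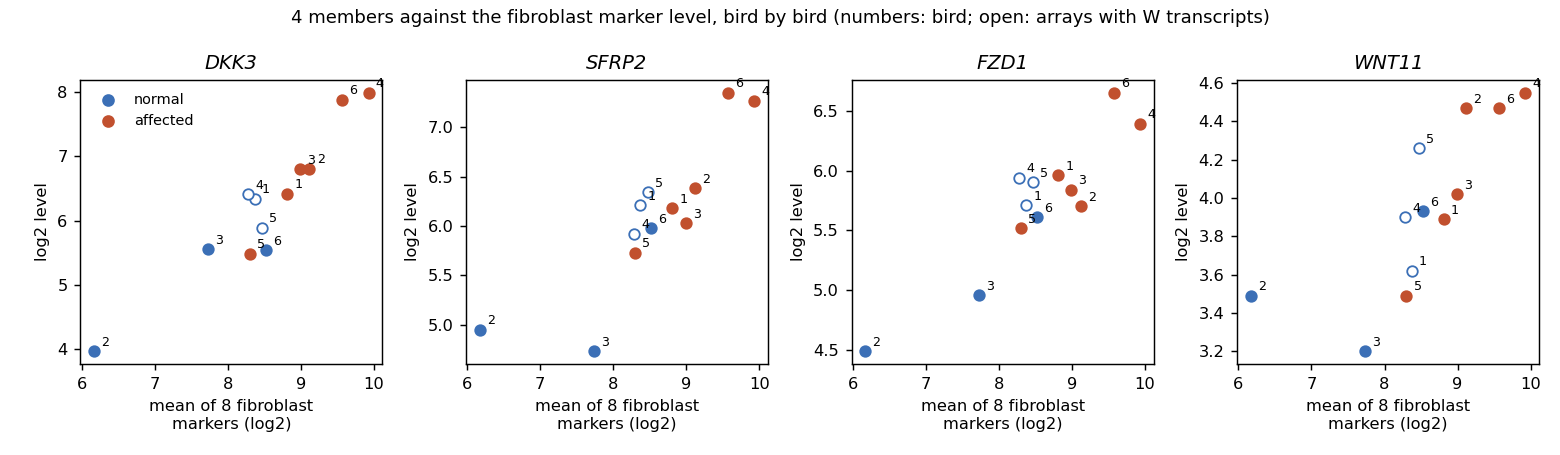
Log2 signal of DKK3, SFRP2, FZD1 and WNT11 (vertical axes) against the mean log2 signal of 8 fibroblast markers (horizontal axis), 1 point per bird, with the bird's number. Affected birds 4 and 6, with marker means of 9.93 and 9.57, lie at the upper right for DKK3, SFRP2 and FZD1, and normal birds 2 and 3 are the lowest for SFRP2, FZD1 and WNT11.

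Satellite cell markers, with 2 of 5 measured, had a mean of 6.91 to 7.41 in normal and 6.99 to 7.17 in affected muscle. Endothelial markers, with 6 of 7 measured, had 5.63 to 6.18 and 5.72 to 5.96. Adipocyte markers, with 3 of 5 measured, had 5.31 to 5.74 and 5.30 to 5.93. Smooth muscle and pericyte markers, with 4 of 5 measured, had 5.13 to 5.41 and 5.23 to 5.61. Schwann cell and nerve markers, with 2 of 4 measured, had 5.21 to 5.39 and 5.19 to 5.67. In each of these lists the groups overlapped and no marker passed. The satellite cell mean joins opposite differences, PAX7 at -0.17 and MYOD1 at 0.18. All 4 smooth muscle and pericyte markers had a positive difference, the largest being PDGFRB at 0.50 ± 0.18 (adjusted p = 0.141 in limma's fit).

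Other genes of the pathway, in 7 classes that hold 85 genes in all, were measured for 68. None passed limma's adjusted threshold in either direction. At an unadjusted p under 0.05 there were 15 of the 68 higher and 3 lower, against 10.6% and 11.5% of all clusters. At that threshold 1006 of 4687 named genes at or above a signal of 5 were higher and 317 lower. Below that signal 627 of 6841 named genes were higher and 729 lower. Of the 68 there were 44 positive (64.7%) and 24 negative differences, with a median of 0.11. Their median signal was 5.28, and they lay on both sides of a signal of 5. Of all named genes 50.6% were positive, with a median of 0.00. The share was 63.3% at or above a signal of 5, with a median of 0.08, and 42.0% below it, with a median of -0.03. When only clusters above the median signal were tested, WLS at an adjusted p of 0.0465 and NFATC3 at 0.0474 were called higher, 2 of 49, while 2.68% of all clusters tested there were called higher.

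WLS, which carries WNT ligands to the cell surface, had the smallest p of 6 measured genes of lipid modification and secretion, with a difference of 0.72 ± 0.19 (adjusted p = 0.0652). Among 10 co-receptors and alternative receptors this was CD44, the hyaluronan receptor, at 0.90 ± 0.25 (adjusted p = 0.0742), with groups that did not overlap. CD44 also had the smallest p of 13 transcripts that beta-catenin raises in many tissues. In that class 8 differences were positive and 5 negative, with a median of 0.11. NKD1, a feedback inhibitor in the same class, had the smallest p among 11 cytoplasmic kinases and scaffold proteins, at 0.52 ± 0.17 (adjusted p = 0.105).

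SOST, the sclerostin of bone that blocks LRP5 and LRP6, had the smallest p among 8 genes of receptor turnover and other antagonists, at -0.28 ± 0.10 (adjusted p = 0.124). Among 9 nuclear partners the smallest p was that of the Z-linked TLE4, a corepressor bound by TCF factors, with 0.34 ± 0.09 (adjusted p = 0.0733). Its difference was 0.31 when the 3 arrays with W transcripts were left out. NFATC3, a calcium-dependent transcription factor of muscle, led 18 genes of the planar polarity and calcium branch, at 0.50 ± 0.13 (adjusted p = 0.063). Without the 3 arrays the class medians were 0.33 for the transcripts raised by beta-catenin and -0.04 for the polarity and calcium branch. They were 0.18 for co-receptors, 0.16 for secretion, 0.12 for kinases and scaffold, 0.04 for receptor turnover and -0.03 for nuclear partners. The median of all named genes was -0.01 there, and CD44 had an adjusted p of 0.115 in limma's fit. Of the transcripts raised by beta-catenin 9 were positive and 4 negative there. The 4 were JUN at -0.39, RNF43 at -0.31, NOTUM at -0.15 and ZNRF3 at -0.12. MMP7 went from 0.23 with all arrays to 0.67, with the 3 remaining normal birds at 2.32 to 2.43, under the 2.99 of HINTW. All these medians rest on those 3 normal birds.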

How the data were processed

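Total RNA, 150 ng per bird, was labelled with a whole-transcript kit and hybridised to Affymetrix arrays, per the labels' protocols. The table deposited by the authors holds values read here as log2 expression for 20804 transcript clusters. The base was inferred from the range of 1.04 to 12.9. The submitters' processing notes name Partek; background correction, summarization and scaling are not stated there, and the genome build is not given in the sources used here. Of the clusters 12300 had 1 platform gene symbol, 256 several and 8248 none listed. Symbols were updated through Entrez IDs with a gene table of GRCg7b, used only for names, chromosomes and gene order (38 of 39 members matched by ID). A gene with several clusters was represented by the brightest.

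Groups came from the phenotype label. Title numbers run from 1 to 10 in normal and from 11 to 20 in affected birds, and the labels do not say what they stand for. If they follow the order of processing, its effect and the phenotype cannot be told apart. No batch is given. Differences were fitted with limma 3.58.1 in R 4.3.3 (lmFit, eBayes, 10 residual and 3.39 prior degrees of freedom) and adjusted by Benjamini-Hochberg over all clusters at 0.05. On simulated data with 20804 clusters the 6 against 6 fit recovered 61.5%, 89.0% and 99.5% of changes of 0.5, 1 and 2, with 4.76% of calls false. The simulated noise was independent for each cluster, with no shift shared by the clusters of a bird. These rates may therefore not hold for the deposited arrays. Values in full are given for members past the threshold, the 12 with the smallest p, the brightest of each role, APC, and members added after their values were seen (AXIN1, AXIN2, LRP5, SFRP2, FZD1, WNT11 and others given in brief). Of each other pathway class the gene with the smallest p is named. The members and lists were chosen with earlier results of these data known. Alternatives were other scalings, signal filters, variance models, array weights, HINTW, gene averaging, named clusters only, and left-out birds. The number of arrays limits precision.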

Additional observations from a re-analysis of the deposited data

Results flagged for a closer look

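In 78 groups of 6 birds (39 members in both phenotypes), 5 held a bird whose gap to its nearest neighbour took more than 0.625 of the group's range, the limit that chance passes in about 1 of 20 groups. DKK3 in normal bird 2 was at 3.97, the other normal birds at 5.54 to 6.41. WNT5B in normal bird 1 was at 4.41, with the others at 5.35 to 5.73. FZD4 in the same bird was at 4.50, with the others at 5.01 to 5.24. In affected bird 6 FZD4 was at 4.86, the other affected birds at 5.13 to 5.25. WNT10A in normal bird 5 was at 3.66, with the others at 3.94 to 4.10.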

How the results depend on the processing

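APC kept a positive difference under each of 11 other settings (0.59 to 0.68) and each of 12 fits without 1 bird (0.62 to 0.70); its call held in 8 and 11 of them. The count of called members, 1, became 0 without the arrays with W transcripts, with HINTW as a covariate, and when normal bird 2 and affected bird 4 were both dropped. It ranged from 0 (without affected bird 6) to 3 (without normal bird 5, adding FZD5 and WNT8A, or normal bird 6, adding LRP6 and WNT7A) when 1 bird was left out. The count over all clusters, 238, was 384 and 455 with clusters above the lower quartile and the median signal, 3 without the arrays with W transcripts, 9 with the covariate, 1 without normal bird 2 and affected bird 4, and from 1 (without affected bird 6) to 588 (without affected bird 1) without 1 bird. With arrays centred on their median 225 clusters were higher and 117 lower, against 131 and 107. The members' median difference was 0.16 over the 21 members above the median signal, 0.03 without normal bird 2 and affected bird 4, and -0.04 to 0.01 without 1 bird. Calls among other pathway genes were 2 above the median signal and 0 in each fit without 1 bird. DVL1 turned to 0.04 without normal bird 2 and affected bird 4. That pair had the lowest normal and the highest affected fibroblast marker mean, 6.17 and 9.93. FZD2 turned to 0.01 with array weights, 0.00 with median centring and 0.21 without normal bird 2 and affected bird 4, and ran from -0.12 to 0.13 without 1 bird. The causes were not tested. Members past an unadjusted p of 0.05 numbered 11 to 18 without 1 bird, where 18.1% to 23.9% of all clusters passed. They numbered 10, or 25.6%, when normal bird 2 and affected bird 4 were dropped, where 17.1% of all clusters passed. Other clusters of the same member could not be tried, since each had 1. No paired analysis was possible because the labels pair no birds. Members near the signal of HINTW without W transcripts have differences that the array's background may compress. On the arrays without W transcripts HINTW was itself lower in affected birds, at 2.46 to 2.71 against 2.83 to 2.99. That difference was -0.33 ± 0.09 (adjusted p = 0.13 in limma's fit). Whether background differed between the groups was not tested.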

Other observations

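In 2 places members lie next to each other in the gene order of GRCg7b. WNT3 and WNT9B on chromosome 27 had differences of -0.05 and -0.26, with affected values of 3.16 to 3.91 and 4.13 to 4.22. WNT6 and WNT10A on chromosome 7 had -0.19 and 0.06. No gene of either pair passed.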
